A study of Mus musculus with 2 samples.

Results

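TRAV17, TRAV18, TRAV19, TRAV20 and TRAV21-DV12 are 5 neighbouring variable genes at the J-proximal (3′) end of the mouse TCRα V array, and their rearrangements were followed in iT cells, T cells derived from engineered embryonic stem cells. A clonotype, that is all reads with 1 CDR3 sequence, was counted as theirs when its first-listed J gene was a TRAJ and its first-listed V gene was 1 of the 5. The rule found 178 clonotypes in the thymus library and 410 in the spleen library, 588 of the 15672 TCRα clonotypes and of 19558 clonotypes of both chains. A further TRAV19 clonotype in thymus, with 1 read, had no TRAJ and was left out. The data consisted of 2 TCR libraries, 1 per tissue, each from 15000 sorted CD4SP and CD8SP iT cells taken at week 6 after transplantation. The cells descended from iR9-ESC (C57BL/6), which carry a doxycycline-inducible Runx1-p2a-Hoxa9 cassette in Rosa26, and had matured in irradiated, immunodeficient B-NDG recipients of the CD45.1 strain, so both groups shared this transgene and this host. The study's methods list a thymus gate of CD45.2+ single-positive cells without other lineage markers, NK1.1 or TCRγδ, and a spleen gate of CD45.2+ single-positive cells that were CD62L+CD44-, whereas its main text describes naïve cells from both tissues. Tissue and library cannot be told apart, nor can the gate if it differed, and the sources used here do not state how many recipients were pooled.

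At the TCRα locus a V gene is joined directly to a J gene, and the V and J genes between them are lost on excision. The first rearrangements of an allele tend to join V genes near the J array to J genes at its 5′ end. Later rearrangements of the same allele can replace them, using V genes further upstream and J genes further downstream, until the receptor is selected or the cell dies. The CDR3 is the stretch encoded by the V end, the J start and any nucleotides that terminal transferase inserts between them. TRAV21-DV12 can also serve as a δ-chain V gene, whereas TRAV20 is annotated as a pseudogene.

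On GRCm38 the 5 genes lie on the + strand of chromosome 14 in numerical order, TRAV17 at chr14:53806639-53807115, TRAV18 at chr14:53831105-53831827, TRAV19 at chr14:53845234-53845827, TRAV20 at chr14:53863110-53863661 and TRAV21-DV12 at chr14:53875984-53876752. Their distances to TRAJ61, the most 5′ J gene, were 348, 323, 309, 291 and 278 kb, respectively, against 1726 kb for TRAV1 and 1587 kb for TRAV2 at the other end of the array. Closer still were TRAV23, 177 kb from TRAJ61 and with 1 clonotype in spleen, and the δ V genes TRDV1, TRDV2-1, TRDV2-2 and TRDV4. The germline 3′ ends of the 5 genes show what each can contribute to a CDR3. The last 20 bases of each coding sequence in the annotated transcripts are given 5′ to 3′, with the bases that belong to the CDR3 in capitals.
TRAV17: tacttcTGTGCACTGGAGGG
TRAV18: catctacttcTGTACAGGAA
TRAV19: gtacctcTGCGCAGCAGGTG
TRAV20: gtacctcTGTGCACCAGGCA
TRAV21-DV12: ccacTGTATCCTGAGAGTAG
TRAV21-DV12 contributed the longest CDR3 end, 16 bases, and TRAV18 the shortest, 10 bases. Both TRAV19 and TRAV20 contribute 13 bases and TRAV17 contributes 14.

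The 3 TRAJ genes joined most often to the 5 V genes all came from the 5′ part of the J array. They are printed with the bases up to the end of the CDR3 in capitals, and all 50, 51 and 53 clonotypes of these genes ended with the same last bases.
TRAJ57: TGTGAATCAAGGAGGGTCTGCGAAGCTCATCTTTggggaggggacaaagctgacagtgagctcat
TRAJ56: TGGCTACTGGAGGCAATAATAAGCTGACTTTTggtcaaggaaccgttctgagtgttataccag
TRAJ49: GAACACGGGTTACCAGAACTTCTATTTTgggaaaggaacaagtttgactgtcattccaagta
The clonotype with most reads of each well-represented gene and tissue shows how the ends were joined, with inserted bases in capitals.
TRAV17-TRAJ27, thymus, 223 reads: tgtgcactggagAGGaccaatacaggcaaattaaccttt
TRAV17-TRAJ48, spleen, 1553 reads: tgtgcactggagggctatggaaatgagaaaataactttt
TRAV19-TRAJ33, thymus, 938 reads: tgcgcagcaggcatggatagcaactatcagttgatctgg
TRAV19-TRAJ34, spleen, 1150 reads: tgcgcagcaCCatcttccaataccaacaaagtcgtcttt
TRAV21-DV12-TRAJ23, thymus, 912 reads: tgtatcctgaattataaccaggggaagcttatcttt
TRAV21-DV12-TRAJ49, spleen, 1241 reads: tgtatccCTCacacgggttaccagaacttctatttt
All 6 were productive, meaning that the CDR3 was in frame and without a stop codon, and 3 of them had no inserted base. The 2 TRAV17 sequences kept 12 and all 14 bases of the germline V end. The spleen TRAV21-DV12 sequence had lost 9 of its 16.

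TRAV19 and TRAV21-DV12 held most of the rearrangements in both tissues. In the thymus library 103 clonotypes used TRAV21-DV12 and 56 used TRAV19, while TRAV17 had 9, TRAV18 had 5 and TRAV20 had 5. In the spleen library the counts were 202 for TRAV21-DV12, 165 for TRAV19, 32 for TRAV17, 6 for TRAV20 and 5 for TRAV18. The 5 genes together made up 2.92% of TCRα clonotypes in thymus (Wilson 95% interval, 2.53% to 3.38%) and 4.28% in spleen (3.89% to 4.70%). Their reads amounted to 22385 of 918063 TCRα reads in thymus, or 2.44%, and to 77933 of 1820314 in spleen, or 4.28%. In thymus 1 clonotype of the other TRAV genes held 98095 reads, 11.1% of the reads of that group. The largest in spleen held 1.77%. Read shares in thymus therefore depend in part on a single clonotype. Intervals of clonotype shares cover counting error only. No molecular identifiers are stated for the libraries, so intervals of read shares, which take each read as independent, are too narrow. With 1 library per tissue, no difference between tissues has a replicate check.

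Between the 2 libraries the share of the 5 genes was 1.36 percentage points higher in spleen (0.759 to 1.93). TRAV19 accounted for 0.802 points of this (0.438 to 1.15), from 0.920% to 1.72% of TCRα clonotypes. The difference for TRAV21-DV12, 0.416 points, had an interval that included 0 (-0.0296 to 0.842). TRAV17 went from 0.148% to 0.334% of clonotypes, with 596 reads in thymus and 6500 in spleen. Of the 6500, 1553 belonged to the single TRAV17-TRAJ48 sequence printed above, 23.9% of the gene's reads. TRAV18 and TRAV20 stayed below 0.1% of clonotypes and of reads in both libraries, and 1 TRAV18 and 2 TRAV20 clonotypes, all in spleen, had fewer than 10 reads. The median clonotype of the 5 genes had 84 reads in thymus, the same as the 84 of other TRAV clonotypes, and 128.5 in spleen against 102.

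**Figure D1:**
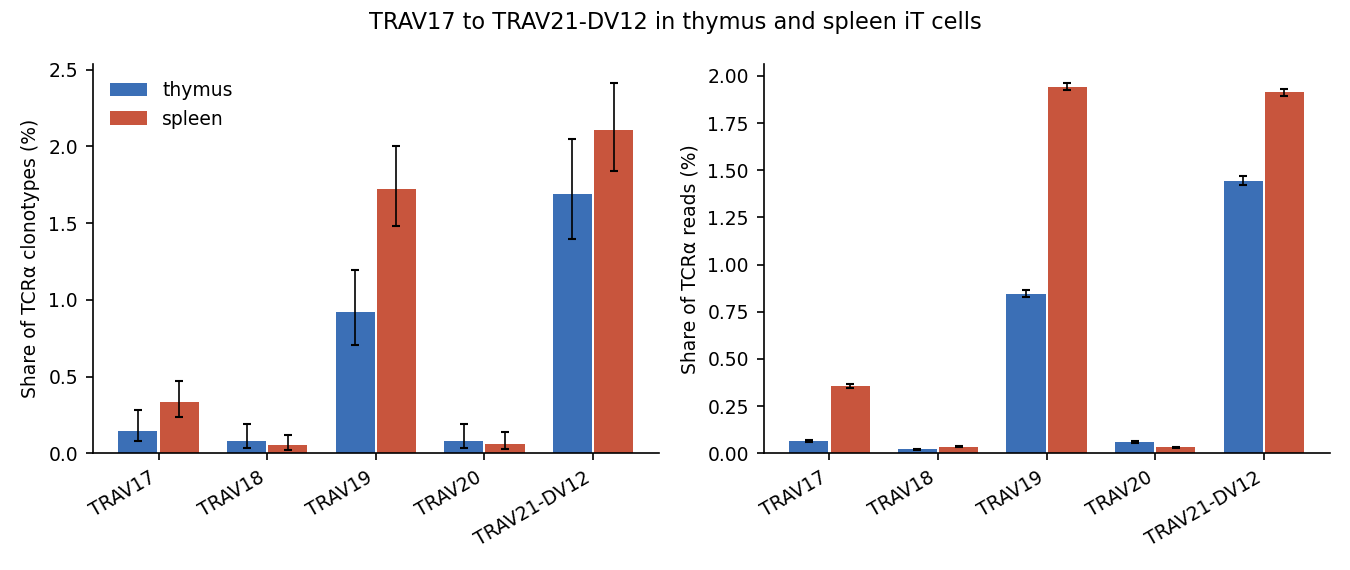
Share of TCRα clonotypes (left, %) and of TCRα reads (right, %) of each of the 5 V genes in thymus (blue) and spleen (red) libraries, with Wilson 95% intervals. Those at left cover counting error only, and those at right take each read as independent and are too narrow. TRAV19 and TRAV21-DV12 are the tallest bars in both panels, and TRAV19 goes from 0.846% of reads in thymus to 1.94% in spleen.

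These V genes were joined mainly to J genes at the 5′ end of the J array. TRAJ45 and all TRAJ genes upstream of it are called 5′ here, TRAJ24 to TRAJ44 middle, and TRAJ23 and all downstream of it 3′. In thymus, 94 of the 178 clonotypes (52.8%, 45.5% to 60.0%) had a 5′ TRAJ, against 746 of 5825 clonotypes of all other TRAV genes (12.8%). The difference of 40.0 percentage points (32.6 to 47.2) passed Fisher's exact test within the library (two-sided, p = 1.05e-35, adjusted p = 3.16e-35 over 6 tests). In spleen, 237 of 410 clonotypes (57.8%, 53.0% to 62.5%) had a 5′ TRAJ against 1092 of 9016 (12.1%), a difference of 45.7 points (40.8 to 50.4; Fisher's exact test, p = 1.63e-100, adjusted p = 9.80e-100). These tests compare clonotypes within 1 library, which they take as independent of each other, and say nothing of other animals. Counted by reads, 47.6% of the reads of the 5 genes in thymus and 55.4% in spleen came from 5′ joins, against 10.3% and 9.97% for the other TRAV genes. The thymus reads of the other TRAV genes include the clonotype of 98095 reads.

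Joins to the 3′ part of the J array were correspondingly few. They numbered 10 in thymus (5.62%) and 13 in spleen (3.17%), whereas 39.2% and 40.7% of the other TRAV clonotypes had a 3′ TRAJ. The median J number was 47 in thymus and 48 in spleen, against 30 and 28 for the other genes. The opposite end of the V array served as a comparison. TRAV1 and TRAV2, the J-distal genes, had 29 clonotypes in thymus and 28 in spleen, none with a 5′ TRAJ, which allows a share of up to 10.3% and 10.7% by a limit of 3 counts of the total (Wilson upper bounds, 11.7% and 12.1%), and 62.1% and 60.7% of them had a 3′ TRAJ. 

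**Figure D2:**
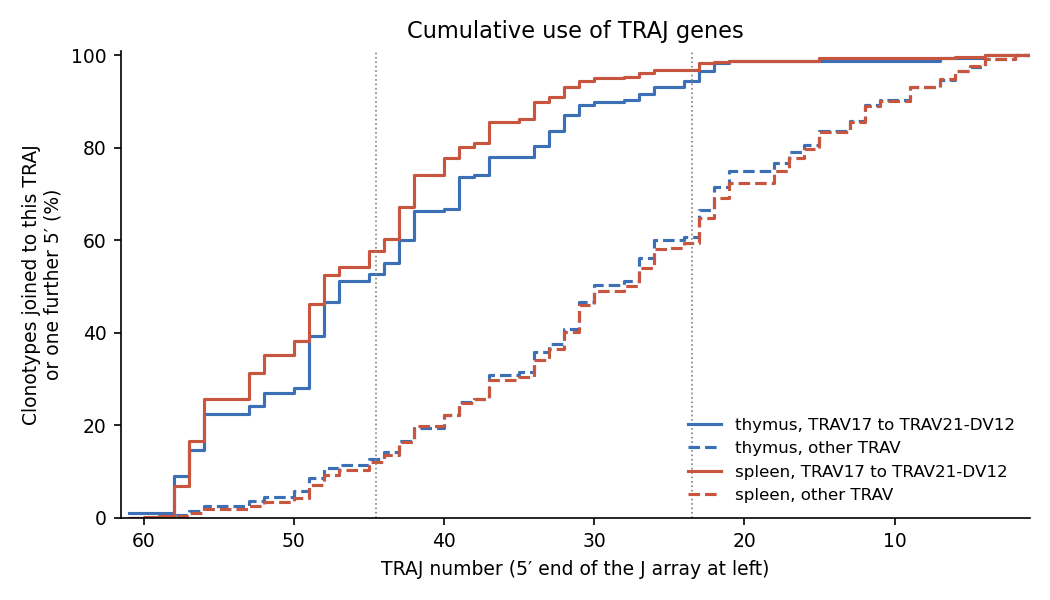
Cumulative share of clonotypes (%, y axis) over the J array from TRAJ61 at left to the 3′ end at right, for TRAV17 to TRAV21-DV12 (solid) and all other TRAV genes (dashed) in thymus (blue) and spleen (red); dotted lines bound the middle TRAJ genes. The solid lines pass 50% near TRAJ47 and TRAJ48 and the dashed lines near TRAJ30 and TRAJ28.

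Over both libraries the leading partners were TRAJ49 with 53 clonotypes, TRAJ56 with 51 and TRAJ57 with 50. TRAJ58, TRAJ57 and TRAJ56 took 6.34%, 9.76% and 9.02% of the clonotypes of the 5 genes in spleen, but 0.410%, 0.588% and 0.776% of those of other TRAV genes. In thymus the same 3 J genes took 7.87%, 5.62% and 7.87%, against 0.652%, 0.755% and 1.20%. TRAJ49, in contrast, was also used by 2.80% and 2.84% of the other clonotypes. The 5 genes used 32 TRAJ genes in thymus and 34 in spleen, where the other TRAV genes, with many more clonotypes, used 46 and 52. These counts grow with the number of clonotypes and were not compared. None of their clonotypes had TRAJ18, TRAJ17, TRAJ16, TRAJ13, TRAJ12, TRAJ11, TRAJ9, TRAJ5 or TRAJ2. Among other TRAV clonotypes each of these took from 0.790% (TRAJ2) to 3.54% (TRAJ12) in thymus, and from 0.688% to 3.38% in spleen. Also absent were TRAJ54, TRAJ51, TRAJ41, TRAJ29, TRAJ25, TRAJ20 and TRAJ3, each with at most 0.111% of the other clonotypes. Whether any single absence goes beyond low counts was not tested.

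By gene, TRAV21-DV12, the closest of the 5 to the J array, was joined to TRAJ49 in 41 clonotypes, to TRAJ57 in 30 and to TRAJ58 in 28. Of its clonotypes 59.2% had a 5′ TRAJ in thymus (49.6% to 68.2%) and 62.9% in spleen (56.0% to 69.2%). It was also the only 1 of the 5 with TRAJ23 joins, 4 in thymus and 6 in spleen. The spleen joins included a clonotype with 2 reads and another with 1 read. The 912 reads of the thymus sequence printed above made it the largest TRAV21-DV12 clonotype of that library.

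TRAV19 was joined most often to TRAJ56 (24 clonotypes), TRAJ43 (17) and TRAJ57 (16). Its 5′ TRAJ share was 46.4% in thymus (34.0% to 59.3%) and 55.8% in spleen (48.1% to 63.1%). Relative to TRAV21-DV12 these shares differed by -12.8 and -7.11 points, which did not pass Fisher's exact test within either library (p = 0.136 and 0.199, adjusted p = 0.181 and 0.199 over 4 tests of this pair, which were chosen after the values were seen). A 3′ TRAJ was found in 1 TRAV19 clonotype in thymus and in 5 in spleen, of which 3 rested on a single read each.

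TRAV17, the farthest of the 5, had a lower 5′ TRAJ share than TRAV19 and TRAV21-DV12 in both libraries, a difference that was not tested. A 5′ TRAJ was present in 1 of 9 clonotypes in thymus (11.1%, 1.99% to 43.5%) and in 12 of 32 in spleen (37.5%, 22.9% to 54.7%), and the interval of the difference, -9.12 to 45.9 points, included 0. Its leading partners were TRAJ42 and TRAJ27 with 4 clonotypes each and TRAJ52 with 3. TRAV18 and TRAV20 had too few clonotypes to rank, with 2 of 5 and 4 of 5 joined to a 5′ TRAJ in thymus and 3 of 5 and 3 of 6 in spleen. No TRAV18 or TRAV20 clonotype had a 3′ TRAJ.

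**Figure D3:**
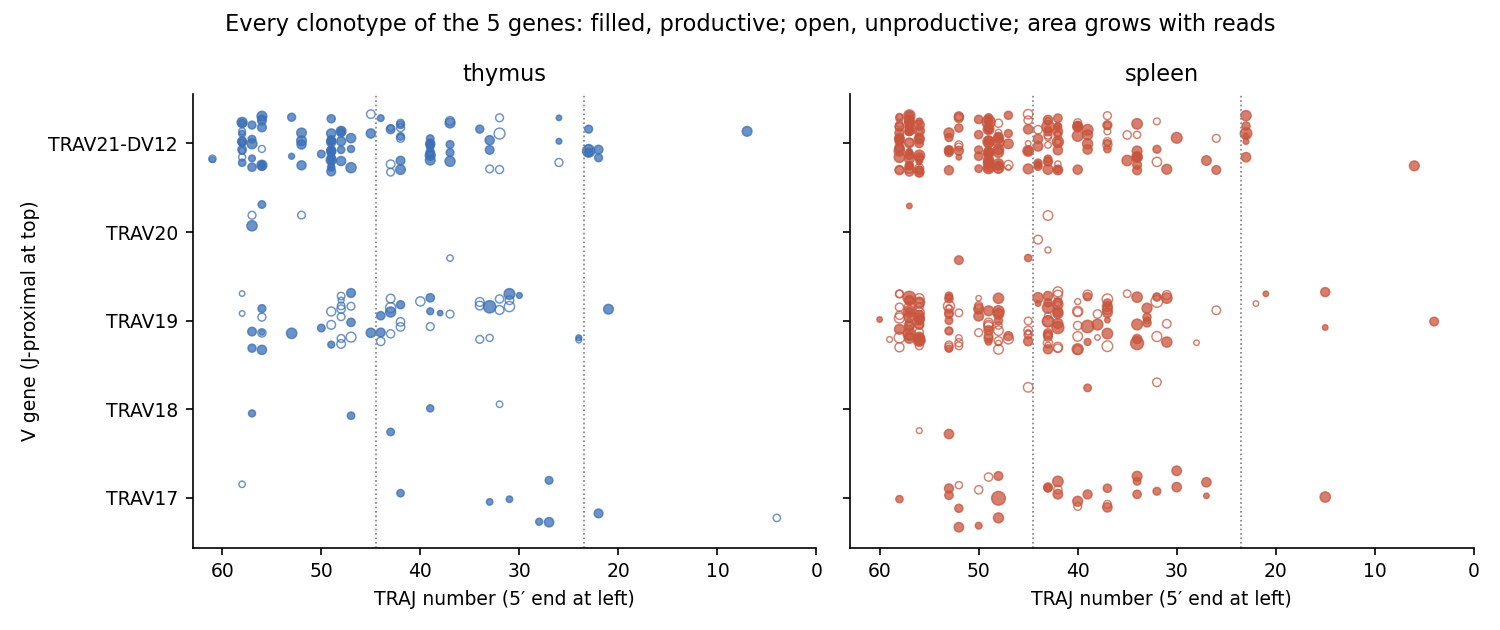
Every clonotype of the 5 V genes by the number of its TRAJ (x axis, 5′ end at left) and V gene (y axis, scattered within a row for visibility) in thymus and spleen; filled points are productive, open points unproductive, point area grows with read count and dotted lines bound the middle TRAJ genes. Right of the second dotted line lie 10 clonotypes in thymus and 13 in spleen.

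High 5′ TRAJ shares were not confined to these genes. Among TRAV genes with at least 20 clonotypes, TRAV21-DV12 ranked 1 of 84 in thymus and 1 of 100 in spleen by 5′ TRAJ share. TRAV19 ranked 5 and 2, and TRAV17 ranked 10 in spleen. The δ V genes joined to TRAJ, which were not ranked, include TRDV2-2 and TRDV1, 193 and 273 kb from TRAJ61. Their 5′ TRAJ shares were 66.7% of 15 and 57.1% of 63 clonotypes in thymus and 75.0% of 40 and 64.9% of 94 in spleen. TRAV5-4, 450 kb from TRAJ61, reached 53.4% in thymus and 38.0% in spleen. TRAV14-3, at 391 kb, had 40.5% and 53.2%. TRAV3-4, at 377 kb, had 53.8% in spleen, but none of its 5 thymus clonotypes had a 5′ TRAJ. TRAV16N, though 803 kb away, had 33.3% and 41.4%. Across the ranked TRAV genes, Spearman's rho between the 5′ TRAJ share and the distance to TRAJ61 was -0.63 in thymus and -0.64 in spleen. This is a description over V genes that share 1 library and many of which have near-identical copies. None of the clonotypes of the 5 genes had a tied first V hit, whereas 1513 of the other TRAV clonotypes in thymus and 2479 in spleen did. The germline distance between the joined V and J genes had a median of 305 kb in thymus and 311 kb in spleen, against 895 and 957 kb for the other TRAV genes. Because the 5 genes were chosen by their place in the V array, this difference largely follows from the choice and is no separate result.

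**Figure D4:**
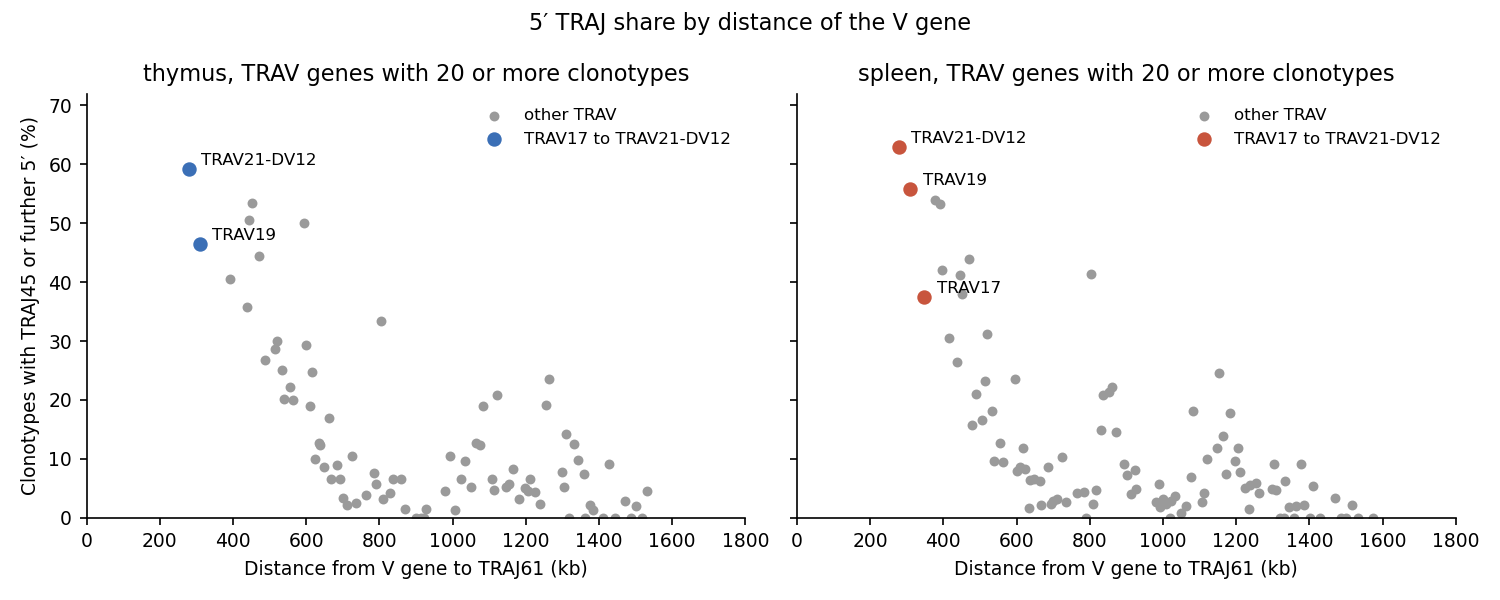
Share of clonotypes with TRAJ45 or a TRAJ further 5′ (%, y axis) against the distance of each V gene from TRAJ61 (kb, x axis), for TRAV genes with at least 20 clonotypes in thymus (84 genes) and spleen (100 genes); coloured points are members of TRAV17 to TRAV21-DV12, grey points other TRAV genes. TRAV21-DV12, at 278 kb, is the highest point in both panels, in which δ V genes are not drawn.

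In-frame joins were less frequent in the group than among the other TRAV genes, and this rested on TRAV19. In thymus 115 of 178 clonotypes were productive (64.6%, 57.3% to 71.3%) against 75.0% of the other TRAV clonotypes, a difference of -10.4 points (-17.7 to -3.65; Fisher's exact test, two-sided, p = 0.00278, adjusted p = 0.00418). In spleen 251 of 410 were productive (61.2%, 56.4% to 65.8%) against 69.6%, a difference of -8.41 points (-13.3 to -3.72; Fisher's exact test, p = 4.46e-04, adjusted p = 8.92e-04). Without TRAV19 the differences were 0.406 points in thymus (-8.01 to 7.29) and 2.20 points in spleen (-3.80 to 7.55), with adjusted p = 1 and 0.641 by the same exact test. 

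TRAV19 was productive in 23 of 56 clonotypes in thymus (41.1%, 29.2% to 54.1%) and in 75 of 165 in spleen (45.5%, 38.0% to 53.1%). TRAV21-DV12 was productive in 76.7% (67.7% to 83.8%) and 71.8% (65.2% to 77.5%). Within the libraries the 2 genes differed by -35.6 points (-49.5 to -19.8) in thymus and -26.3 points (-35.7 to -16.3) in spleen (Fisher's exact test, adjusted p = 2.41e-05 and 1.64e-06, in the same 4 tests chosen after the values were seen). Among TRAV genes with at least 20 clonotypes, TRAV19 had the second lowest productive share of 84 in thymus, after TRAV13D-3 with 33.3%, and the ninth lowest of 100 in spleen. Its unproductive clonotypes had a median of 103.5 reads in spleen against 255 for the productive ones, and of 103 against 109 in thymus. By reads, TRAV19 was productive in 51.5% in thymus and 63.4% in spleen. In thymus a single productive clonotype, TRAV19-TRAJ33 with 938 reads, held 12.1% of the gene's reads.

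Nearly all unproductive CDR3s of the 5 genes were shifted out of frame, 61 in thymus and 159 in spleen, and an in-frame stop codon was found in 2 and 0. The 5′ TRAJ share of TRAV19 was 47.8% for productive and 45.5% for unproductive clonotypes in thymus and 50.7% and 60.0% in spleen. For TRAV21-DV12 it was 64.6% and 41.7% in thymus and 64.8% and 57.9% in spleen. TRAV17 was productive in 7 of 9 and 26 of 32 clonotypes, and TRAV18 in 4 of 5 and 2 of 5. For the pseudogene TRAV20, a productive call refers to the CDR3 only, and it applied to 2 of 5 and 3 of 6 clonotypes. The largest TRAV20 clonotype, with TRAJ57 and 361 reads in thymus, had a V alignment score of 210, and 3 of the 5 TRAV20 clonotypes in thymus scored below 300, where the median over the 5 genes was 1193.

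**Figure D5:**
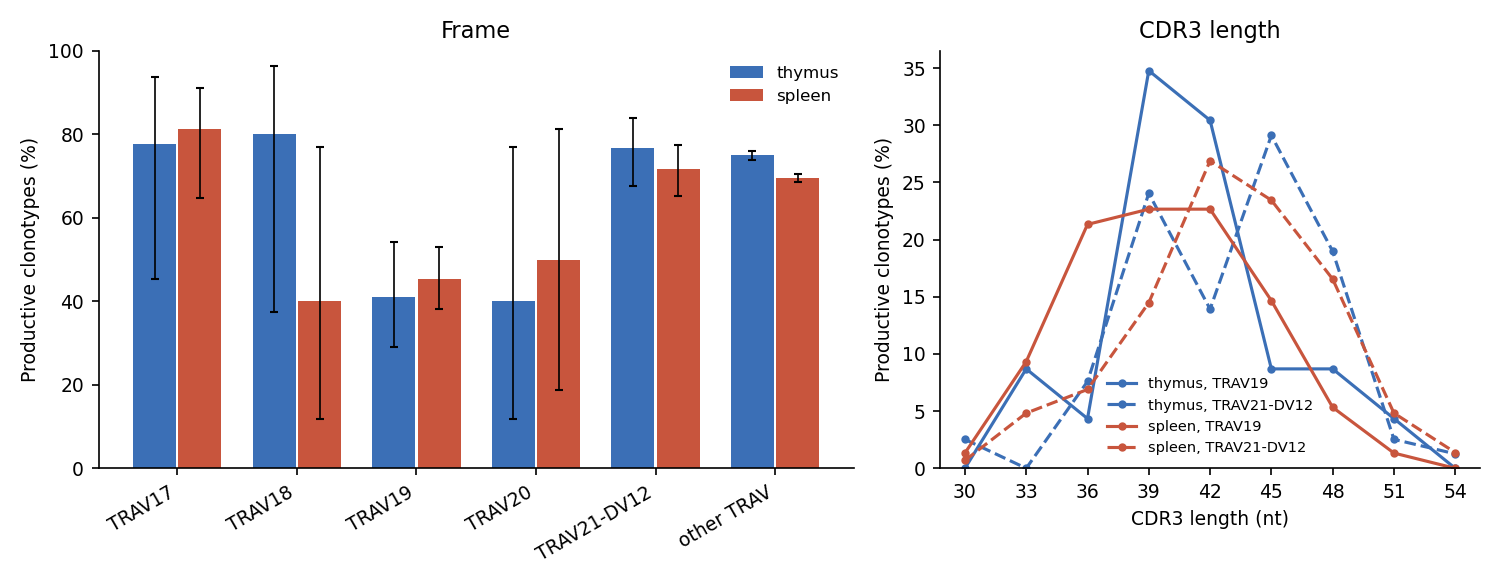
Left, share of productive clonotypes (%) of each V gene and of all other TRAV genes in thymus (blue) and spleen (red), with Wilson 95% intervals that cover counting error only. Right, share of productive clonotypes (%) by CDR3 length in nucleotides for TRAV19 (solid) and TRAV21-DV12 (dashed); TRAV19 stands at 41.1% and 45.5% productive, below the 75.0% and 69.6% of the other TRAV genes, and 1 TRAV19 CDR3 of 141 nt lies beyond the axis.

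Junctions of the 5 genes had few inserted nucleotides, as did those of the other TRAV genes. Only bases between the aligned V and J ends were counted, so a junction without any need not be wholly germline. Among productive clonotypes, 43 of 115 had none in thymus (37.4%, 29.1% to 46.5%) against 31.7% of the other TRAV clonotypes, a difference of 5.67 points (-2.75 to 14.9; Fisher's exact test, p = 0.223, adjusted p = 0.266). In spleen 111 of 251 had none (44.2%, 38.2% to 50.4%) against 40.6%, a difference of 3.62 points (-2.51 to 9.92; Fisher's exact test, p = 0.266, adjusted p = 0.266). The intervals thus leave room for differences of up to 14.9 and 9.92 points. The median number of inserted nucleotides was 2 in thymus and 1 in spleen, the same as for the other TRAV genes. Among unproductive junctions, 34.9% in thymus and 53.5% in spleen had no inserted nucleotide, against 33.6% and 52.7% for the other TRAV genes. At least 1 base of the germline V end had been removed in 58.4% and 61.2% of clonotypes, against 59.9% and 58.6% for the other TRAV genes.

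Productive CDR3s of the 5 genes averaged 42.2 nt (SD 4.59 over 115 clonotypes) in thymus and 42.3 nt (SD 7.85 over 251 clonotypes) in spleen, and those of the other TRAV genes averaged 40.6 and 40.5 nt. The spleen SD included 1 TRAV19-TRAJ21 clonotype of 141 nt with a single read and a V alignment score of 50. Over the 247 spleen clonotypes that scored at least 300, the mean was 41.8 nt (SD 4.76). Weighted by reads, the mean of the 5 genes was 41.1 nt in thymus and 40.8 nt in spleen. No read-weighted mean was computed for the other TRAV genes. TRAV21-DV12, which has the longest germline CDR3 end, had the longer CDR3s, 42.9 nt in both tissues (SD 4.62 and 4.68), and TRAV19 had 41.1 nt (SD 4.38) and 41.2 nt (SD 12.5), the latter 39.8 nt (SD 4.42) over clonotypes that scored at least 300. The most frequent length of TRAV21-DV12 was 45 nt in thymus (29.1% of productive clonotypes) and 42 nt in spleen (26.9%). In TRAV19 it was 39 nt in thymus (34.8%), and 39 and 42 nt were equally frequent in spleen (22.7% each). TRAV18, which has the shortest end, had 36.0 nt over 4 productive clonotypes in thymus and 37.5 nt over 2 in spleen. TRAV17 had 42 nt over 7 in thymus and 41.9 nt over 26 in spleen, and TRAV20 had 40.5 nt over 2 and 41 nt over 3. Any link between the germline V end and CDR3 length was not tested.

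Few clonotypes of the 5 genes were found in both tissues. The same V gene, J gene and CDR3 nucleotides occurred 17 times, 9.55% of the thymus clonotypes (6.05% to 14.8%) and 4.15% of the spleen clonotypes (2.60% to 6.54%), and other TRAV genes shared 5.20% and 3.36%. Of the 17, however, 12 had only 1 read in 1 of the libraries, beside 96 to 714 reads in the other. Transfer of reads between the 2 libraries was not tested. With at least 2 reads in both, 5 were shared, 2.92% of the thymus and 1.29% of the spleen clonotypes, against 3.05% and 1.96% for the other TRAV genes. These 5 were all productive and are shown with their reads in thymus and spleen, inserted bases in capitals.
TRAV19-TRAJ47, 156 and 179 reads: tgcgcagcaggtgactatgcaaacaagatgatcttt
TRAV21-DV12-TRAJ49, 216 and 170 reads: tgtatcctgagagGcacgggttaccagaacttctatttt
TRAV21-DV12-TRAJ58, 44 and 91 reads: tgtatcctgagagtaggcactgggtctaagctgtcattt
TRAV21-DV12-TRAJ47, 347 and 81 reads: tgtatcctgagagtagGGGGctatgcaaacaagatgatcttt
TRAV21-DV12-TRAJ23, 912 and 2 reads: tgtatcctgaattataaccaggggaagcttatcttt
In this set 3 of the 5 sequences had no inserted base, and 4 used a TRAJ from the 5′ part of the array.

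Some CDR3 proteins were reached by more than 1 nucleotide sequence. Over both libraries the 5 genes encoded 332 distinct productive CDR3 proteins for a given V and J gene, and 20 of them came from 2 sequences each. TRAV21-DV12 held 17 of the 20, of its 198 proteins, TRAV19 held 2 of 93 and TRAV17 held 1 of 31. The matching share of the other TRAV genes was not computed, so these counts have no background to be read against. A spleen pair with TRAV21-DV12 and TRAJ48 had similar read counts in its 2 sequences, neither of which had a base between the aligned V and J ends.
TRAV21-DV12-TRAJ48, 493 reads: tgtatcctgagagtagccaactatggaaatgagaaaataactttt
TRAV21-DV12-TRAJ48, 365 reads: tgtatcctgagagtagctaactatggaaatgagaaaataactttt
A second pair, with TRAJ58, had its 2 sequences in different tissues.
TRAV21-DV12-TRAJ58, spleen, 427 reads: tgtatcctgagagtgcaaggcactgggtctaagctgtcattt
TRAV21-DV12-TRAJ58, thymus, 326 reads: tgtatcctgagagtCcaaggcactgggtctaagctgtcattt
These pairs were picked after their values were seen. Sequences 1 base apart counted as separate clonotypes. Merging those whose reads differed at least 20 times removed 1 clonotype of the 5 genes in each library. Pairs below that limit stayed among the 20 proteins. Examples were TRAV21-DV12-TRAJ53 in thymus, with 82 and 5 reads, and TRAV21-DV12-TRAJ49 in spleen, with 17 and 1. Whether such pairs hold sequencing errors was not tested.

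Between the tissues, the size of the difference in 5′ J use of the 5 genes changed with the bound set for the 5′ part of the J array. Spleen minus thymus, the 5′ TRAJ share of the 5 genes differed by 5.0 points (-3.67 to 13.7), the productive share by -3.39 points (-11.6 to 5.21) and the share without inserted nucleotides by 6.83 points (-4.09 to 17.2). All 3 intervals included 0 and cover counting error only. With the 5′ bound at TRAJ50 in place of TRAJ45, 50 of 178 clonotypes in thymus (28.1%) and 157 of 410 in spleen (38.3%) had a 5′ TRAJ. The difference was 10.2 points (1.83 to 17.9), in the same direction as with the bound at TRAJ45. At this bound TRAV19 went from 19.6% in thymus to 40.6% in spleen, a difference of 20.96 points (6.80 to 32.2), and TRAV21-DV12 from 32.0% to 38.6%, a difference of 6.58 points (-4.92 to 17.3). These values at TRAJ50 were set side by side after the data were seen. Their intervals take clonotypes as independent, so they are no test between tissues, and no difference between the tissues has a replicate check. For the other TRAV genes the differences with the bound at TRAJ45, in frame and in insertion were -0.695 points (-1.80 to 0.387), -5.37 points (-6.83 to -3.90) and 8.88 points (7.03 to 10.7).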

How the data were processed

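The authors made the libraries with the SMARTer Mouse TCR a/b Profiling Kit, sequenced them on a MiSeq, and aligned and assembled the reads with MiXCR, which has its own gene library. They deposited for each clonotype its read count, not normalized, and the corresponding fraction over both chains together. Neither read filters nor molecular identifiers are given in the sources used here. The thymus library held 2700370 reads and the spleen library 4585403, with 3 reads corresponding to 0.000327% and 0.000165% of TCRα reads.

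TRAV21-DV12 is written TRAV21/DV12 in the tables. Shares were recomputed over TCRα. Inserted nucleotides were counted between the aligned V and J ends. The aligned V end passed the germline end in 38 clonotypes of the 5 genes in thymus and 97 in spleen. Such bases were not counted as inserted, so a junction without inserted bases need not be wholly germline. Genes and sequences came from GENCODE annotation of GRCm38, which matched all 118 and 121 V genes. Intervals are Wilson intervals, or Newcombe's for differences, at 95%. Members were compared with all other TRAV clonotypes in each library by two-sided Fisher's exact tests, adjusted by Benjamini-Hochberg over 6 tests. No test was made between tissues, which have 1 library each. The named items were all 5 genes, the 3 leading TRAJ of each, the largest clonotype of each gene and tissue, and shared clonotypes, some left out for length. The members, lists and tests were chosen with earlier results of these data known. Read minimums, productive clonotypes only, ties, merged errors, read weights and other J bounds were tried as alternatives. On simulated data, merging removed 100% of 200 added errors, all of which were made to meet the merging rule. That run checks the code only and does not show how well errors in the real libraries were removed. Python 3.11.15, pandas 2.3.3 and scipy 1.17.1 were used.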

Additional observations from a re-analysis of the deposited data

How the results depend on the processing

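Across the alternatives, the 5′ TRAJ difference between the 5 genes and the other TRAV genes kept its direction and passed the test wherever one was made, between 22.3 and 44.4 points in thymus and between 34.1 and 47.1 in spleen. The lowest values came with the 5′ bound at TRAJ50, where the 5′ share of TRAV19 was 19.6% in thymus and 40.6% in spleen and that of TRAV21-DV12 was 32.0% and 38.6%. The productive difference kept its direction except without TRAV19, chosen after seeing the data, when it was 0.406 points in thymus and 2.20 in spleen. Without TRAV21-DV12, also added after seeing the data, 75 and 208 clonotypes were left, with 0.993% and 2.37% of reads. Without TRAV19 the spleen held 245, with 1.59% of reads in thymus and 2.34% in spleen. Productive clonotypes alone numbered 115 and 251, with 1.78% and 3.26% of reads. With V scores of at least 300, also added after seeing the data, the thymus share of reads was 2.37%. Weighted by reads, the spleen difference in the share without inserted nucleotides was -8.98 points, against 3.62 by clonotypes, and the thymus difference was 13.8 points, against 5.67. The cause was not tested. Of 168 recomputed values, 146 counted as unchanged. They moved by less than their interval or spread, kept their call where tested or, for clonotype counts, stayed within a fixed ratio of the main count. By that last rule the thymus count without TRAV19, 122 against 178, counted as unchanged. TRAV18 and TRAV20 had only 5 or 6 clonotypes per library, which limited what could be said of them. Whether depth set these counts was not tested. No paired analysis was possible because each tissue has 1 library.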
